A study of Mus musculus with 8 samples.

Results

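On day 3 of differentiation, preadipocytes of Irf3-knockout mice were compared with preadipocytes of wildtype mice on 1 array of each genotype. Both groups came from white adipose tissue and were kept in high-glucose DMEM with newborn calf serum, insulin and ascorbate, with no further treatment. Arrays of the same genotypes on days 5, 7 and 9, 1 per genotype and day, make up the rest of the 8 arrays. The strain, sex, age and number of mice, the part of Irf3 that was deleted and whether the days of a genotype share a culture are not given in the sources used here. A probe was kept if its detection p, the share of negative control beads at least as bright, was under 0.05 on at least 1 of the 2 day 3 arrays. This kept 13721 of 25697 probes, which represent 9415 named genes, and 12025 of the kept probes were detected on both arrays. With 1 array against 1, a day 3 difference has no error and no test, and it cannot be separated from a difference between these 2 cultures.

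Irf3 encodes interferon regulatory factor 3, a transcription factor that rests in the cytoplasm until sensors of viral nucleic acid or bacterial lipopolysaccharide activate the kinase TBK1, which phosphorylates it. It then enters the nucleus and turns on interferon beta and a set of antiviral genes directly, and secreted interferon turns on a wider set in cells that carry its receptor. Preadipocytes are fibroblast-like precursors that, under insulin and other cues, turn on the nuclear receptor PPAR gamma and then the genes of fat storage and of fat cell hormones. Cultures from the stromal fraction of fat can also hold macrophages, endothelial cells, mesothelial cells and muscle precursors.

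The wildtype day 3 array was the dimmest of the 8 before normalization, with a mean raw intensity of 638 against 935 on the knockout day 3 array. The shares of probes detected were close, 50.5% in wildtype and 49.7% in knockout. Values below are background-corrected, quantile-normalized log2 intensities, and a difference is knockout minus wildtype, so that 1 is 2-fold. The median difference of all genes was 0.03 and the SD across genes 0.54. For a gene detected on 1 array and not on the other, the fold is given as at least the detected value over the dimmest detected probe of the other array or the gene's own value there, whichever is higher. There were 504 genes not above background on the wildtype array alone and 565 on the knockout array alone.

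Irf3 itself was detected on both day 3 arrays with each of its 3 probes. The brightest had a raw intensity of 1524 in wildtype and 1930 in knockout, which after normalization was a difference of -0.25, and the other two differed by -0.83 and 0.13. None was 2-fold apart, and over days 5, 7 and 9 the brightest probe differed by -0.59 ± 0.19 (SE, adjusted p = 0.099 by limma). Without the deleted part or the probe positions, these probes do not check the genotype labels. Bcl2l12, which lies beside Irf3 on chromosome 7 and encodes a BCL2-family protein, read 7.36 in wildtype and was not above background in knockout at 5.18. It was at least 3.25-fold lower in knockout on day 3 at its only kept probe, and this probe was also lower on the later days by limma (-1.50 ± 0.26, SE, adjusted p = 0.0166). Its other probe was above background on neither day 3 array and differed by 0.46.

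At a threshold of 2-fold, 317 genes (3.37% of 9415) were higher in knockout on day 3 and 259 (2.75%) were lower. Without background correction there were 79 and 72, with an offset of 50 there were 159 and 132, and with detection required on both arrays 204 and 159. The 90% of genes in the middle lay between -0.80 and 0.85. At the edge of the threshold, Dnajb13 at 1.0002 and Fgf9 at -1.01 were inside, and Tnfrsf11a at 0.998 and Thbs1 at -0.999 were outside. Scaling the arrays by their medians moved the median of all genes to 0.23, which turned the counts into 369 higher and 190 lower, 66.0% higher against 55.0%. Medians of gene lists that lie within about 0.3 of 0 can change sign with that choice, and those of the interferon-stimulated, macrophage, fat cell and muscle lists below do not. List counts below stand beside the 3.37% of all genes that were 2-fold higher and the 2.75% that were lower. With the normalization used here the median of all genes was 0.03, so genes above 0 outnumbered those below.

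**Figure D1:**
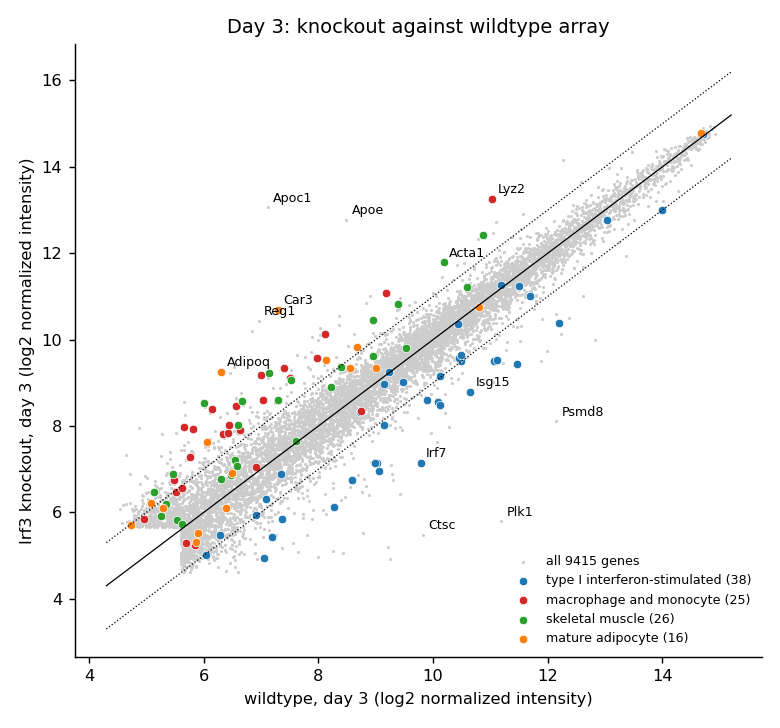
Log2 normalized intensity of 9415 genes on the wildtype array (horizontal) and the Irf3-knockout array (vertical) of day 3, with the solid line at equal values and dotted lines at 2-fold. Most genes follow the diagonal, the interferon-stimulated genes lie on or below it, and the macrophage and muscle genes mostly above it. Apoc1, Apoe, Plk1, Ctsc and Psmd8, all on chromosome 7 like Irf3, lie far from it. So do Reg1 and the unlabelled Chil1 and Lars2, which are on other chromosomes.

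Genes with several probes were looked at apart, since their probes can be set against each other. There were 2508 genes with at least 2 kept probes, and in 35 of them every kept probe passed 2-fold in the same direction, 21 higher (0.837% of 2508) and 14 lower (0.558%). Of the 100 genes with several probes whose brightest probe was 2-fold apart, the others were 48 with all probes in the same direction but at least 1 of them under 2-fold, and 17 with a probe in the opposite direction. Probes of a gene read the same 2 RNA samples, so their agreement adds no replicate of the genotype. The filter also favours agreement, since a probe that is dim on both arrays is left out: 9 of the 35 genes had 12 such probes, at -0.26 to 0.60. Of the 80 kept probes 26 were above background on 1 array only, where the difference is against a background value, and 21 of the 35 genes had at least 2 probes above background on both. Without background correction such genes numbered 4 higher and 5 lower.

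The gene furthest apart among the 35 was Apoc1, an apolipoprotein made by liver and by lipid-laden macrophages. Its brighter probe read 7.12 in wildtype and 13.07 in knockout, 61.9-fold higher, and the other differed by 5.16. Abhd1, which encodes an alpha/beta hydrolase-fold protein, read 5.66 in wildtype and 8.55 in knockout, and its other probes were not above background in wildtype. Fv1, a retroviral restriction gene of mice that differs between laboratory strains, read 5.67 and 8.25, and its other probes were not above background in wildtype. All 3 genes were also higher in knockout over days 5, 7 and 9 by limma (adjusted p 0.0087 for Apoc1, 0.00048 for Abhd1 and 0.00090 for Fv1). For Fv1 the wildtype values of those days were not above background.

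Macrophage and blood cell genes made up much of the rest of the 21. Lyz2, lysozyme of myeloid cells, read 11.03 and 13.26, and its probes differed by 2.23 and 2.23. Adgre1, the F4/80 antigen of macrophages, read 7.00 and 9.18 (probes 1.52 and 2.18), and Coro1a, an actin regulator of leukocytes, read 6.68 and 8.49 (1.81 and 1.59 at the probes detected on both arrays). The chemokines Ccl12 (8.03 and 10.09) and Ccl4 (8.35 and 10.55), Lat2 (7.53 and 9.29), an adaptor of immune receptor signalling, and Ms4a6d, Clec4b1 and Ppbp, the precursor of a platelet chemokine, were in the same set. No probe of Clec4b1 was above background in wildtype, and it was at least 1.54-fold higher at its brighter probe. Cd74, the invariant chain of MHC class II, was not above background in wildtype and read 7.44 in knockout, at least 3.58-fold higher at its brighter probe.

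Muscle genes and genes of other kinds made up the rest. Myh8, the perinatal myosin heavy chain, read 8.54 in knockout, 5.81-fold higher at its brighter probe, and Myl1, a fast-muscle myosin light chain, and Csrp3, the muscle LIM protein, were also in the set. In Myh8, Myl1 and Csrp3 the dimmer probe was not above background in wildtype. Hp, haptoglobin, read 10.53 and 11.76 with 3 probes at 1.23 to 1.67. Fgf10, a growth factor that mesenchymal cells secrete, had 3 probes at 1.09 to 1.30, and the amino acid transporter Slc7a8 had probes at 1.30 and 1.34. Mup2 (6.11 and 8.30) and Mup5 belong to the major urinary proteins, a family of near-identical genes, so the member measured is uncertain. The dimmer probe of Mup2 and both kept probes of Mup5 were not above background in wildtype, and Mup5 was at least 1.38-fold higher.

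Among the 14 genes lower with every probe, Ctsc was furthest apart. It encodes cathepsin C, which activates the serine proteases of immune cells. Its brightest probe read 9.83 in wildtype and was not above background in knockout at 5.48, at least 17.98-fold lower, and none of its 3 probes was above background in knockout. Pvr, the poliovirus receptor homologue, read 8.91 and 7.15 at its brighter probe, and the other was not above background in knockout. Itga5, the fibronectin receptor subunit, read 11.91 and 10.47, and Rarb, a retinoic acid receptor, read 8.37 and 7.29, with -1.08 and -1.40 at the probes detected on both arrays. Cdh2, which encodes N-cadherin, was not above background in knockout and at least 2.05-fold lower, and Cmtm8 at least 1.20-fold. The direction of both dim genes comes from the correction for the brighter knockout array, since their raw intensities were 175.1 and 143.7 in wildtype and 184 and 154.1 in knockout. Serinc2 (7.67 and 6.59) and the corepressor Tle1 (10.02 and 8.95) were just past 2-fold, and the other 6, Oasl2, Usp18, Oasl1, Oas1g, Ifit3 and Gbp3, were interferon-stimulated genes.

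**Figure D2:**
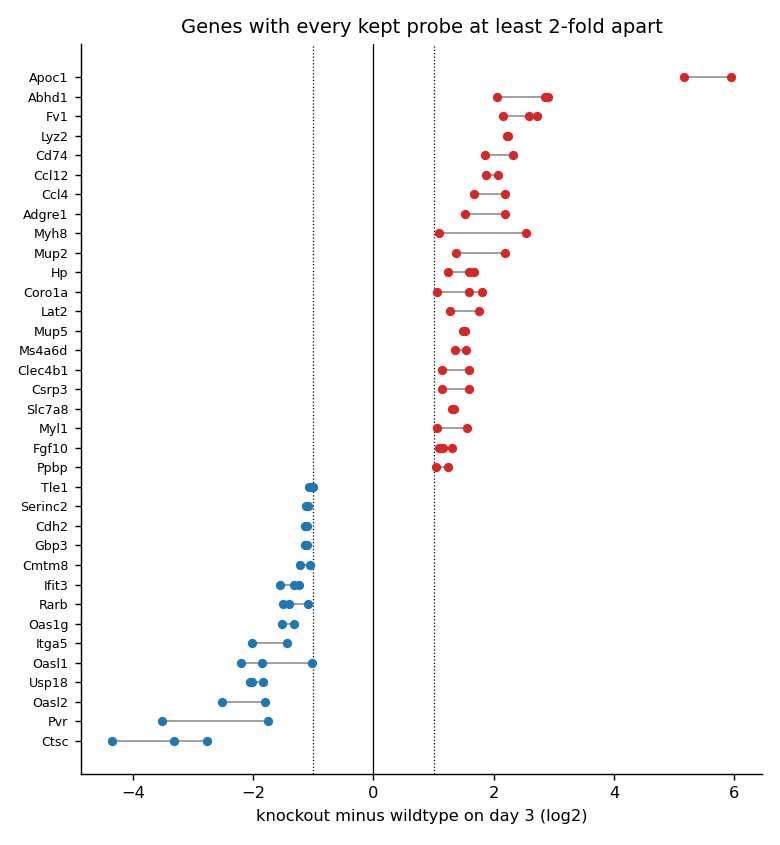
Difference between knockout and wildtype on day 3 (log2) for each kept probe of the 35 genes whose kept probes, at least 2 per gene, all passed 2-fold in the same direction. Points are probes, grey lines join the probes of a gene, 26 of the 80 points are differences against a background value, and dotted lines mark 2-fold. Apoc1 and Ctsc stand furthest out, and in most genes the probes differ from each other by less than 1.

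Type I interferon-stimulated genes were the list with the most members lower in knockout. Of 38 kept members, 19 were at least 2-fold lower and none was 2-fold higher, and the median was -1.01 against 0.03 for all genes. On this day 35 of the 38 were below 0. The 38 include 4 that were not above background in knockout and were kept through the wildtype array alone, which favours values below 0. Irf7, the factor that amplifies the interferon response, was furthest apart, with 9.78 in wildtype and 7.15 in knockout, a difference of -2.63. Rsad2, which encodes the antiviral enzyme viperin, read 8.28 and 6.12, and Ccl5, a chemokine for T cells, read 9.05 and 6.96. Mx2, an antiviral GTPase, read 7.06 in wildtype and was not above background in knockout, at least 2.63-fold lower.

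Usp18, the protease that removes ISG15 from proteins, read 11.46 and 9.44, and its 3 probes differed by -1.84 to -2.06. Oasl2 and Oasl1, relatives of the RNA-sensing oligoadenylate synthetases, read 12.19 and 10.39, and 8.59 and 6.74. Ifit3, which binds foreign RNA with its relatives, read 11.06 and 9.50 (3 probes, -1.24 to -1.56), and Oas1g read 10.08 and 8.56; both belong to families of similar genes, so their probes may read relatives. Isg15, the ubiquitin-like modifier itself, read 10.64 and 8.79, and Dhx58, which encodes the RNA sensor LGP2, read 9.02 and 7.15. At the other end of the list, Trim21, Ifitm3 and Ifi205 differed by 0.02, 0.04 and 0.09. The kept members exclude 7 genes on the array that were above background on neither day 3 array, among them Mx1, Ifit1 and Oas3.

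IRF3 and its relatives bind the interferon-stimulated response element, and the letters GAAA followed by any 2 bases and again GAAA, on either strand, were searched in windows from 250 bases before to 50 after each start site (RefSeq, GRCm38.p6). They occurred in 3.44% of 32851 windows and in 3.77% of the 7636 kept genes with a window. Of the interferon-stimulated list 27 members had a window and 12 of these (44.4%) held the letters, 6 of 13 (46.2%) among the 2-fold lower genes and 6 of 14 (42.9%) among the others. The shares of the 2-fold lower members and of the rest of the list were close. The 6 genes that were 2-fold lower and hold them are given here with their surroundings, 5′ to 3′ along the gene's strand, because they let the element be compared between genes. Capitals mark the matches, which appear as their reverse complement where they lie on the opposite strand. In Isg15 and Oas1g the matches overlap.
Isg15: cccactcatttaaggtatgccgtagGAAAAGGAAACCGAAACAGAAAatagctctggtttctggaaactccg
Oas1g: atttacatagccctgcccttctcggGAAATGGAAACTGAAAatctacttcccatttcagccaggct
Ifit3: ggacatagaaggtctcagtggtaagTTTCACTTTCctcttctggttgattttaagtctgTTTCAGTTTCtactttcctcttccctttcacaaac
Rsad2: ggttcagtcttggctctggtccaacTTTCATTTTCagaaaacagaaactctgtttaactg
Cxcl10: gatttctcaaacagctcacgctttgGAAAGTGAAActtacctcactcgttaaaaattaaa
Trim30a: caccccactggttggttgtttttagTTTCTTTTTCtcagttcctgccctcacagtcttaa
The stretches lie at chr4:156200850-156200921 for Isg15, chr5:120887591-120887656 for Oas1g, chr19:34583348-34583441 for Ifit3, chr12:26456538-26456597 for Rsad2, chr5:92349068-92349127 for Cxcl10 and chr7:104446089-104446148 for Trim30a. All but Ifit3 lie on the minus strand. A match describes the letters and not binding, which was not measured.

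Of 27 kept genes that interferon gamma also drives or that serve antigen presentation, 8 were 2-fold lower and 2 were 2-fold higher, with a median of -0.21 that turns to 0.045 when arrays are scaled by their medians. Lower were the class I antigen-presentation genes H2-K1 (8.08 in wildtype, 6.06 in knockout) and H2-D1 (9.42 and 7.98), which belong to a family of similar genes, and the peptide transporter gene Tap1 (8.29 and 7.08). Also lower were the chemokine gene Cxcl9 (7.74 and 6.32), the GTPase genes Igtp (10.50 and 9.22) and Ifi47 (9.54 and 8.32), and Gbp3 (10.90 and 9.79). The 2 higher members belong to class II presentation, Cd74 and H2-Ab1. Other class I genes were near even, with B2m at -0.21, Psmb9 at -0.27, Tap2 at 0.03 and Psmb8 at 0.05. H2-Ab1 read 6.68 in knockout, at least 2.11-fold higher at its brightest probe, while its 4 probes spanned -0.20 to 1.42.

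Of 19 kept genes of nucleic acid and lipopolysaccharide sensing, 2 were 2-fold lower, Irf7 and Dhx58, and none was higher. Ifnb1, interferon beta, was above background on none of the 8 arrays. Of 29 kept NF-kB genes 4 were higher and 4 lower, with a median of -0.42. Lcn2, which encodes the iron-scavenging lipocalin 2, read 11.88 in wildtype and 9.51 in knockout, 5.17-fold lower. Il1rn, the interleukin-1 receptor antagonist, was not above background in wildtype and read 7.84 in knockout, at least 4.70-fold higher, and Ccl3 (7.38 and 9.26) and Ccl4 were higher as well. Clu, a secreted chaperone of the complement list, read 12.36 in wildtype and 10.50 in knockout.

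**Figure D3:**
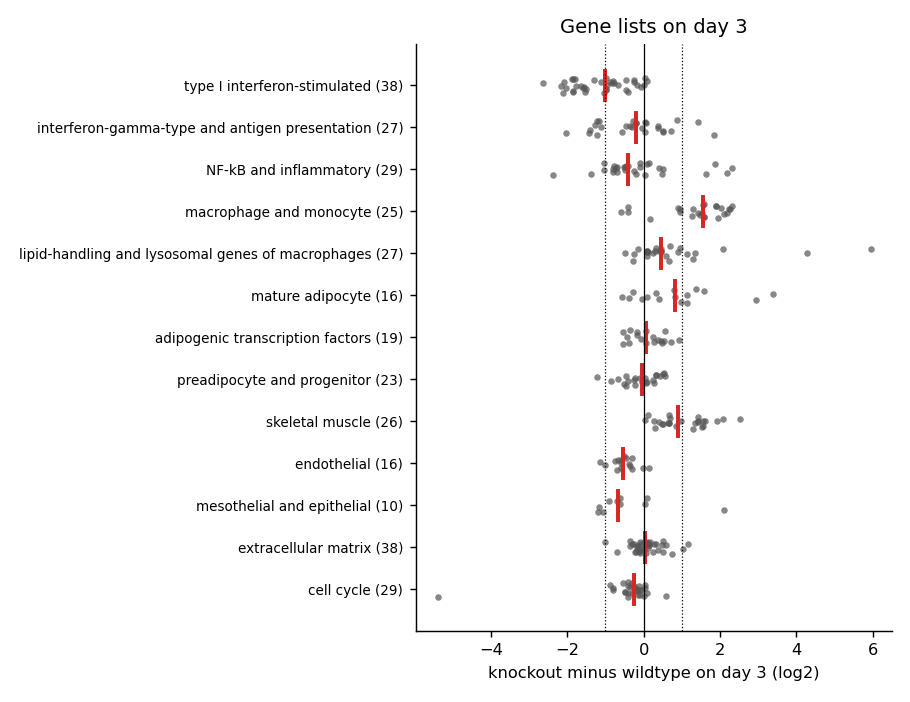
Difference between knockout and wildtype on day 3 (log2) for the kept genes of 13 lists, a grey point per gene, with the number of genes in brackets, the list median as a red bar and dotted lines at 2-fold. The interferon-stimulated list is centred at -1.01 and the macrophage list at 1.56, the skeletal muscle list at 0.91 has every point above 0, and the matrix and preadipocyte lists are centred near 0.

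Macrophage genes were higher in knockout. Of 25 kept members of the macrophage and monocyte list 18 were at least 2-fold higher and none was 2-fold lower, with a median of 1.56, and their summed raw intensity was 6301 in wildtype and 23028 in knockout. The 25 include 3 that were not above background in wildtype and were kept through the knockout array alone, which favours values above 0. Another 2 were kept through the wildtype array alone, which favours the opposite. Fcgr3, an Fc receptor, read 5.65 in wildtype and 7.97 in knockout, and Cd84, a signalling receptor of leukocytes, read 6.13 and 8.40. Mrc1, the mannose receptor of tissue macrophages, read 7.40 and 9.35, and Fcer1g, the shared signalling chain of Fc receptors, read 8.12 and 10.14. Cd163, Marco and Cd14 were at -0.60, -0.41 and -0.40, and C1qa at 0.15 stood apart from C1qb at 1.59 and C1qc at 1.60, which encode the other chains of the same complement protein.

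Of the 36 members on the array 11 were above background on neither day 3 array, among them Ptprc, Itgam, Spi1, Cx3cr1 and Ccr2. Lymphocyte and dendritic cell genes were nearly all below background too, with 1 of 11 and 2 of 9 kept. RNA of a whole culture was measured, so more cells of a type and more RNA per cell cannot be told apart. Macrophage genes move with the other differences between these arrays, and their part in them was not tested.

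Genes of lipid handling and lysosomes in macrophages were led by the apolipoprotein genes Apoc1, given above, and Apoe. Of 27 kept members 6 were 2-fold higher and none 2-fold lower, with a median of 0.44. Apoe, the neighbour of Apoc1 and the main apolipoprotein that macrophages and fat cells secrete, read 8.48 in wildtype and 12.78 in knockout, 19.6-fold higher at its only kept probe. Trem2, a lipid-sensing receptor of macrophages, read 6.57 and 8.64, and Fabp5, a fatty acid carrier, read 6.53 and 7.88. The lysosomal genes Ctsd, Npc2 and Ctsz were at -0.48, -0.28 and -0.26. Apoc1 and Apoe differed by 5.95 and 4.29, and the highest difference of the macrophage list was 2.32, at Fcgr3. Fcgr3 was close to background in wildtype at 5.65, so its ratio may be understated. Wfdc17, a gene of activated macrophages outside that list, differed by 3.36. The part of macrophage content in the differences of Apoc1 and Apoe was not tested.

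Fat cell genes were partly detectable on day 3, and several that were detected read higher in knockout. Of 25 mature fat cell genes on the array 9 were above background on neither array, among them Fabp4, Cidec, Cidea, Retn and Cd36. At the probe examined, Cd36 was above background on none of the 8 arrays, and Fabp4 and Cidea on no wildtype array. For these genes a lack of signal is not particular to day 3. Of the 16 kept, 6 were 2-fold higher and none 2-fold lower, with a median of 0.82. The 16 include 3 that were not above background in wildtype and were kept through the knockout array alone, which favours values above 0. Another 2 were kept through the wildtype array alone, which favours the opposite. Adipoq, the fat cell hormone adiponectin, read 6.31 in wildtype and 9.26 in knockout, 7.75-fold higher, and Car3, the carbonic anhydrase abundant in fat and muscle, read 7.29 and 10.70, 10.6-fold higher. Plin4, a lipid droplet coat protein, read 8.13 and 9.52, Pnpla2, the triglyceride lipase, 8.68 and 9.82, and Rbp4, a retinol carrier, 6.06 and 7.64. Plin1, another coat protein, was not above background in wildtype and at least 1.52-fold higher. The gene set was therefore not silent before day 5, and in wildtype Adipoq went from 6.31 on day 3 to 11.63 on day 5.

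The regulators and the metabolic genes of fat cells differed less on day 3. None of 19 kept adipogenic transcription factors was 2-fold apart. Pparg, the main regulator, read 9.63 in wildtype and 10.56 in knockout, with its kept probes at 0.93 and 0.44. Of 18 kept genes of fatty acid and triglyceride synthesis 1 was 2-fold higher, Lpin1, a phosphatidate phosphatase (6.27 and 7.47). Of 18 genes of fatty acid oxidation 2 were higher, Decr1 (5.96 and 7.02) and Cpt1b, whose kept probes disagreed at 1.79 and -0.01. None of 17 genes of cholesterol synthesis, 31 of the respiratory chain and the citrate cycle, and 16 of glycolysis was 2-fold apart.

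The kept genes of the preadipocyte list were close to even. The list shares Eng with the endothelial list and does not by itself check the labelled cell type. Of 27 members on the array 23 were kept. Among the others, Cd24a, F3 and Wnt10b were above background on none of the 8 arrays at the probe examined. Pdgfra, the receptor that marks fat precursors, read 13.99 in wildtype and 14.23 in knockout. The median was -0.05, turning to 0.14 with arrays scaled by their medians, and 1 of 23 was 2-fold apart. That gene was Cd44, an adhesion receptor for hyaluronan, which read 11.54 and 10.32, with its 4 kept probes spanning -1.22 to -0.29. Extracellular matrix genes were likewise near even, with 2 of 38 past 2-fold, both higher, Mmp13, a collagenase (7.05 and 8.21), and Eln, elastin (9.61 and 10.65).

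Skeletal muscle genes were higher in knockout on day 3. All 26 kept genes of the list were above 0 and 12 were at least 2-fold higher, with a median of 0.91, and the summed raw intensity was 9129 in wildtype and 25227 in knockout. The 26 include 5 that were not above background in wildtype and were kept through the knockout array alone, which favours values above 0. Another 8 of the 34 members on the array were above background on neither day 3 array, among them Ckm, Myh4 and Myf6. Acta1, skeletal actin, read 10.19 in wildtype and 11.79 in knockout, and Atp2a1, the calcium pump of fast fibres, read 7.14 and 9.23. The troponin genes Tnni2 (6.66 and 8.57), Tnnc2 (7.53 and 9.07) and Tnnc1 (8.95 and 10.46) and the myosin light chain gene Mylpf (9.38 and 10.82) were higher as well. Des, the muscle intermediate filament, was at 0.67 and Myod1, the regulator of muscle precursors, at 0.11. The raw sums of all lists are affected by the brighter knockout array, and those of the preadipocyte list were 71248 and 96189. The interferon-stimulated and endothelial lists, lower after normalization, had raw sums no lower in knockout. These were 66840.5 in wildtype and 68682.3 in knockout for the interferon-stimulated list, and 12138.5 and 13856.9 for the endothelial list.

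Other cell types that such cultures could hold read lower or even. Of 16 kept endothelial genes 15 were below 0, with a median of -0.55 against 0.03 for all genes. Only 1 was 2-fold lower, against 2.75% of all genes, and it was Cdh5, the endothelial cadherin (8.01 in wildtype, 6.85 in knockout). Pecam1 read 9.32 and 8.57, and Vwf 8.05 and 7.05. Of 10 kept mesothelial and epithelial genes 3 were 2-fold lower, Krt18 (10.31 and 9.11) and Krt19 (7.34 and 6.27), both keratins, and Cldn3 (8.21 and 7.03), a tight junction protein. Wt1, a transcription factor of mesothelium and visceral fat precursors, went the other way, with 5.82 and 7.91. Of 4 kept neutrophil genes Ltf, lactoferrin, was not above background in knockout and at least 6.04-fold lower, and S100a8 was higher (6.58 and 7.83). The mast cell gene Tpsb2 read 7.83 in wildtype and 6.25 in knockout, while Cma1 was at -0.38 and Cpa3 at -0.27.

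Of 29 kept genes of Wnt, BMP and TGF-beta signalling 1 was 2-fold higher and 3 were lower. Bmp4, a ligand that commits precursors to the fat lineage, was not above background in wildtype and read 7.82 in knockout, at least 4.64-fold higher. Inhba, the activin A subunit, read 11.52 and 9.96, Tgfb1 read 10.07 and 8.87, and Wnt11 was not above background in knockout and at least 1.75-fold lower. Igf2 (9.36 and 10.69) and Igfbp4 (11.56 and 12.91; 2 probes at 1.35 and 0.71) were 2-fold higher among 11 genes of IGF signalling. Of 9 kept genes of the prostaglandin list 2 were higher, Alox5ap, a leukotriene synthesis gene (8.03 and 10.27), and Ptger3, a prostaglandin receptor (7.34 and 8.88). Of 29 kept cell cycle genes 24 were below 0, with a median of -0.26, and of these 29 only Plk1 was past 2-fold, while Rrm2 and Mcm2 were at -0.88 and -0.81.

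The furthest differences among genes with 1 kept probe have no second probe to set beside them. Plk1, a mitotic kinase, read 11.18 in wildtype and 5.79 in knockout, 42.1-fold lower. Psmd8, a proteasome subunit, read 12.15 and 8.11, 16.4-fold lower. Chil1, a chitinase-like secreted protein, Lars2, the mitochondrial leucyl-tRNA synthetase, and Nudt6 were not above background in knockout and were at least 12.0-fold, 11.8-fold and 6.80-fold lower. Reg1, a secreted lectin-like protein, read 6.96 and 10.44, 11.2-fold higher, and Wfdc17, a secreted protein of activated macrophages, read 6.83 and 10.19. Rnase1 was not above background in wildtype and was at least 5.10-fold higher.

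Days 5, 7 and 9 offered arrays that the day 3 comparison did not use, though possibly of the same cultures. A fit of genotype with day as a factor, in which the 3 daily differences are the repeats, called 488 genes higher (5.18% of 9415) and 543 lower (5.77%) by limma at an adjusted p under 0.05. Of the 317 genes 2-fold higher on day 3, 114 (36.0%; 23.4% of the 488) were among those called higher. Of the 259 lower on day 3, 107 (41.3%; 19.7% of the 543) were called lower. Calls in the opposite direction numbered 7 and 3. Among the genes whose probes all agreed, 11 of 21 were called higher and 10 of 14 lower. Without day 7 this fit called 241 genes in all, and with the deposited processed values it called 4, all lower, so the later-day calls given here rest on the normalization used.

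The same lists were followed over the later days, beside the 5.18% of all genes called higher and the 5.77% called lower. Over the later days limma called 32 of the 38 interferon-stimulated genes lower in knockout and none higher, and the list medians were -1.35, -1.49 and -1.47 on days 5, 7 and 9. Isg15 read 10.64, 12.17, 12.65 and 12.59 in wildtype and 8.79, 7.97, 7.96 and 7.83 in knockout, with the groups apart on every day. Of the 25 macrophage genes 22 were called higher in knockout, with list medians of 2.17, 2.35 and 1.88. Adgre1 read 7.00, 7.65, 9.31 and 10.88 in wildtype and 9.18, 10.74, 12.36 and 13.11 in knockout, higher on each day in a pair of series that both climb. Of the 16 fat cell genes 11 were called higher, and the list median was 2.48 on day 5 and 0.84 on day 9.

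Plk1, Psmd8, Lars2 and Nudt6 stayed apart on all later days, by -4.42 ± 0.18, -4.33 ± 0.14, -3.61 ± 0.15 and -3.31 ± 0.17 (SE, limma adjusted p of 0.00016, 0.00016, 0.00016 and 0.00036). Ctsc read 9.83, 10.55, 10.87 and 11.29 in wildtype and 5.48, 6.63, 7.47 and 8.50 in knockout, and differed by -3.36 ± 0.23 (SE) over the later days (limma adjusted p = 0.00071). Bmp4 read 5.27, 5.02, 5.25 and 5.24 in wildtype and 7.82, 7.03, 7.88 and 7.55 in knockout, a difference of 2.31 ± 0.17 (SE) over the later days (limma adjusted p = 0.00080). Bmp4 was not above background on any wildtype array, so this difference is against background values.

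Muscle genes were close to even on the later days. The median of the 26 genes was 0.04, 0.12 and 0.21 on days 5, 7 and 9, and limma called 1 higher, Myl1, and 1 lower, Des. Acta1 read 10.19, 9.42, 8.57 and 8.21 in wildtype and 11.79, 9.38, 8.58 and 8.34 in knockout, so that the arrays differed on day 3 and were within 0.14 on the later days. Il1rn read 5.51, 10.37, 10.04 and 10.32 in wildtype and 7.84, 9.98, 9.01 and 9.48 in knockout, higher in knockout on day 3 with a difference of -0.75 ± 0.17 (SE) over the later days (limma adjusted p = 0.041). Reg1 read 6.96 and then 13.78 to 14.82 in wildtype, and 10.44 and then 14.65 to 14.76 in knockout. Adipoq read 6.31, 11.63, 13.85 and 14.01 in wildtype and 9.26, 14.05, 14.39 and 14.41 in knockout, a gap that was widest on day 3.

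**Figure D4:**
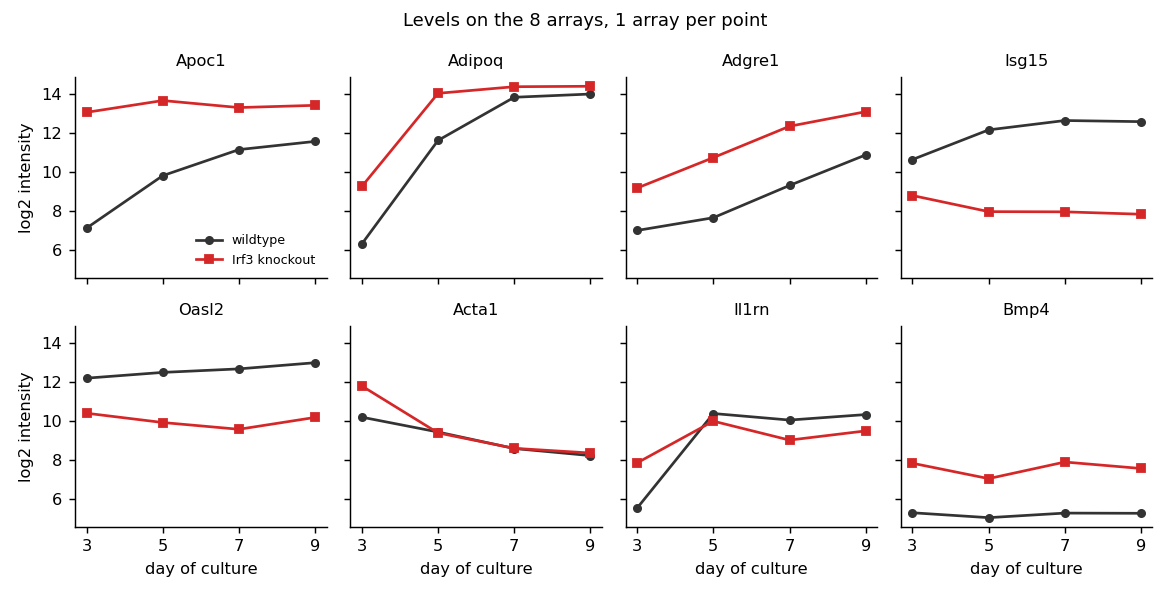
Log2 normalized intensity of 8 genes on days 3, 5, 7 and 9 in wildtype (black circles) and Irf3 knockout (red squares), 1 array per point and no error bars. Isg15, Oasl2, Adgre1 and Bmp4 keep the direction of day 3, the gap of Apoc1 and Adipoq narrows as wildtype climbs, Acta1 meets on day 5 and Il1rn crosses.

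Whether the day 3 difference of a gene departs from its mean later difference was tested across all 9415 genes in a fit with 2 residual degrees of freedom. By limma, no gene passed an adjusted p of 0.05, while 1451 (15.4%) had an unadjusted p under 0.05. With a prior variance that follows intensity and resists outliers, 118 passed, 79 above and 39 below the later difference. The standard test could miss differences of several units, so its lack of calls does not show that day 3 and the later days were alike. Of the 38 interferon-stimulated genes 13 had an unadjusted p under 0.05 with day 3 above the later difference, which is a smaller deficit on day 3, and none with day 3 below. Of the 26 muscle genes 12 had an unadjusted p under 0.05 with day 3 above and none with day 3 below. Of the 25 macrophage genes 10 had day 3 below the later difference at that level and none above.

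**Figure D5:**
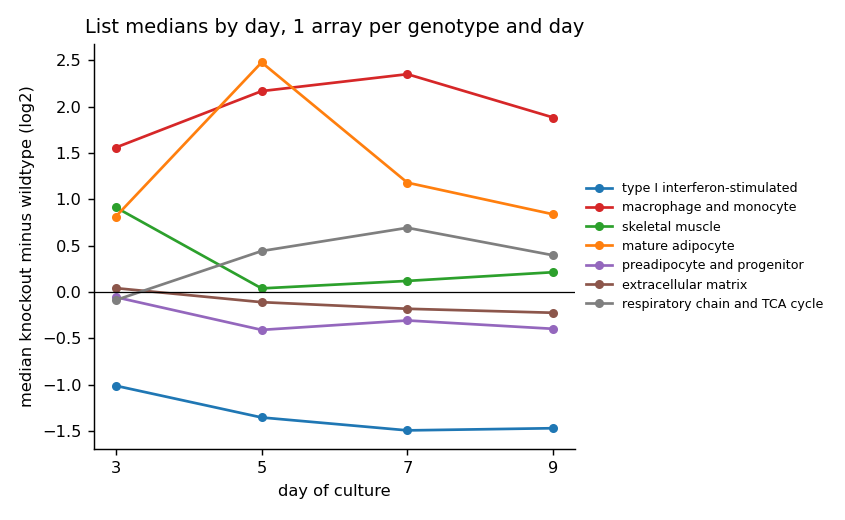
Median difference between knockout and wildtype (log2) over the kept genes of 7 lists on days 3, 5, 7 and 9, 1 array per genotype and day. The interferon-stimulated list stays between -1.01 and -1.49, the macrophage list between 1.56 and 2.35, the fat cell list peaks at 2.48 on day 5, and the muscle list drops from 0.91 to 0.04.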

How the data were processed

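Total RNA was labelled as biotinylated cRNA for Illumina mouse bead arrays, per the labels' protocols. The authors deposited a table of raw bead intensity, not background-subtracted, with a detection p-value for each probe and array, and a matrix of processed intensity values made by steps that the sources used here do not give. The raw table was used, and log2 of the deposited processed values was an alternative. With limma 3.58.1 in R 4.3.3, neqc was run on the 8 arrays together: normexp background correction from the detection p-values, an offset of 16, then quantile normalization and log2. A gene was represented by its kept probe of highest average signal across the 8 arrays; 23978 probes had 1 symbol, none several and 1719 none, and 23962 were matched to names of assembly GRCm38.p6. No source used here gives the build of the array.

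The 2 day 3 arrays were compared with no test. Days 5, 7 and 9 were fitted with day and genotype, and the day 3 departure with a further term, each with 2 residual degrees of freedom, two-sided moderated tests and Benjamini-Hochberg adjustment over 9415 genes. P-values measure the spread between these arrays, which may be technical, and differences that really change over time inflate the error. The fits were tested on simulated data. The number of arrays limits the precision.

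Genes were named by rule: Irf3 and Bcl2l12, the 14 genes per direction with the largest median among those with agreeing probes, the 5 per direction with 1 probe, and up to 4 or, for the main lists, 8 members per list with the largest difference. The remaining agreeing genes, list members near 0 and genes shown by day were picked after their values were seen. The members and lists were chosen with earlier results of these data known. Alternatives changed background correction, offset, scaling, filter, probe choice, days and prior variance.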

Additional observations from a re-analysis of the deposited data

How the results depend on the processing

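Without background correction 79 genes were 2-fold higher and 72 lower on day 3, with an offset of 50 there were 159 and 132, and with detection on both arrays 204 and 159, against 317 and 259. Genes with every probe 2-fold apart numbered 4 higher and 5 lower without background correction and 12 and 8 with an offset of 50; the lower ones numbered 8 with median scaling and 9 with detection on both arrays, against 14. The macrophage median was 0.81 without background correction. Of 109 named genes past 2-fold, all 109 kept their sign without background correction and 68 stayed past 2-fold; the deposited processed values kept the sign of 105. Calls over days 5, 7 and 9, 1031 in all, were 1598 without background correction, 4 with the deposited values, 1675 with the trended and robust prior, and 241 to 1085 leaving out a day (241 without day 7, 581 without day 9). Calls of a day 3 departure were 16 without background correction, 4 with median scaling, 118 with the trended and robust prior and 0 to 31 leaving out a day, the 31 without day 5. List medians near 0 changed sign with median scaling for cholesterol synthesis, glycolysis, NRF2 targets, sensing, preadipocyte, respiratory chain, nerve sheath, interferon gamma and unfolded protein lists. The cause of these moves was not tested. No paired analysis was possible because the labels give no replicate numbers to pair by; the later-day fits already compare the genotypes within each day.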

Other observations

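The chromosome of Irf3 held a larger share of the day 3 differences than its share of genes. Of 748 kept genes on chromosome 7, 38 were 2-fold higher and 35 lower (5.08% and 4.68%), against 279 and 224 of 8663 on the other chromosomes. Among the 100 kept genes around Irf3 in chromosome order, 4 were higher and 4 lower. Chromosome 14 had the highest share of lower genes, 20 of 313 (6.39%). Apoc1 (5.95), Apoe (4.29), Plk1 (-5.40), Ctsc (-4.35), Psmd8 (-4.04) and Irf7 (-2.63) lie on chromosome 7. Chil1, Lars2, Nudt6 and Reg1, also far apart, do not. The counts have no test, the part of the chromosome in these differences was not tested, and no source used here gives the strain.

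Some brightest probes past 2-fold stood beside another probe of the gene near 0; the examples were picked after their values were seen. Plekhf1, which encodes an endosomal and lysosomal protein, was at -2.29 with its brightest probe and -0.22 with the other, and the brightest was also lower on days 5, 7 and 9 by limma (adjusted p = 0.00048). Apex1, a DNA repair enzyme, was at -1.54 and 0.10. Mb, myoglobin, was at 1.43 and -0.14.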
